A study of Mus musculus with 11 samples.

Results

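To describe how the colon differed from control after CD4 T cell transfer, gene expression in Tfam fl/fl Cd4 Cre recipients of these cells ("transferred") was compared with untreated Tfam fl/fl animals ("control"). A gene was not required to differ without transfer as well. These were 5 transferred and 3 control colons, 8 of the 11 libraries of the series. The other 3 came from Tfam fl/fl Cd4 Cre mice without transferred cells ("non-transferred"), and their values are given beside the main genes as a reference. The test covered 16781 of the 22836 genes in the table, those averaging 10 or more normalized counts across the 11 libraries. In Tfam fl/fl mice the gene for the mitochondrial transcription factor TFAM is flanked by loxP sites, so control animals carry the floxed alleles too. Cd4 Cre removes the gene in CD4 T cells and also in CD8 T cells, because both pass through a stage that expresses CD4. Donor cells came from young Ly5.1 (CD45.1) mice with intact Tfam, were injected into a vein behind the eye, and left the recipients' own Tfam-deficient T cells in place. The animals of the transfer experiment were 10 months old by the study's description. Transferred and control colons differed in genotype and in treatment, so these effects cannot be told apart in this comparison. The library called transferred replicate 5 has the number 5 in the count table and 6 in its title. Libraries are numbered without an animal being named, and p-values therefore reflect the variation between samples, which may be technical.

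The colon wall is a layered tissue. A single epithelial sheet secretes antimicrobial proteins into the lumen and absorbs water and salt, the lamina propria beneath it holds T cells, plasma cells and phagocytes, and a muscle coat with its own nerve network moves the contents. Major histocompatibility complex (MHC) class II molecules present antigen to CD4 T cells. They are made constitutively by professional antigen-presenting cells and, under interferon gamma (IFN-γ), by epithelium and other cells, through the transactivator CIITA.

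Depth was even, with 18214741 to 19178986 reads in genes per library, and the markers of colon were in place. The 15 epithelial genes tested had a list level within 0.29 log2 of the control mean in all transferred libraries, and the list levels of all libraries are given below relative to that mean. Tfam mRNA was at 1026 ± 53.5 (SD, n = 3) normalized counts in control and 1021 ± 92.1 (SD, n = 5) in transferred colon. Whole colon contains few T cells, so these values do not check the deletion. The share of reads from mitochondrial genes was 4.63% to 6.73% in control, 3.84% to 4.82% in transferred and 2.55% to 3.44% in non-transferred colons, and its part in the results was not tested.

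Of the 16781 genes, 268 differed between transferred and control colon at an adjusted p under 0.05, which is 1.60% of those tested (limma with Benjamini-Hochberg adjustment over all genes). Among them 192 genes (1.14% of those tested) were higher in transferred colon and 76 (0.453%) were lower, against a median log2 fold change of -0.01 over all genes. Genes called higher had a median log2 fold change of 1.57 and 161 of them exceeded 1. Those called lower had a median of -0.84, and 21 were below -1. None of the 268 had overlapping values between the groups, whereas 1943 of all genes tested (11.6%) did not overlap. Protein-coding genes made up 240 of the calls. Antigen receptor segments added 7 immunoglobulin variable segments and 5 T cell receptor segments, all higher in transferred colon, and 13 calls were predicted genes without a descriptive name.

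The size of this set of calls rested heavily on single libraries. Leaving out control replicate 2 reduced the calls to 11, and leaving out transferred replicate 1 reduced them to 19. They numbered 45 without control replicate 1, 49 without control replicate 3, and 83 without either transferred replicate 3 or transferred replicate 4. By contrast, 692 genes were called without transferred replicate 2 and 831 without transferred replicate 5. A fit of only the transferred and control libraries called 23 genes, and tests on the recovered reads called 177 (edgeR) and 1236 (DESeq2). Counts of list members called are given with their range over the fits that each left out 1 library, and an adjusted p without a named tool is from limma. 

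**Figure D1:**
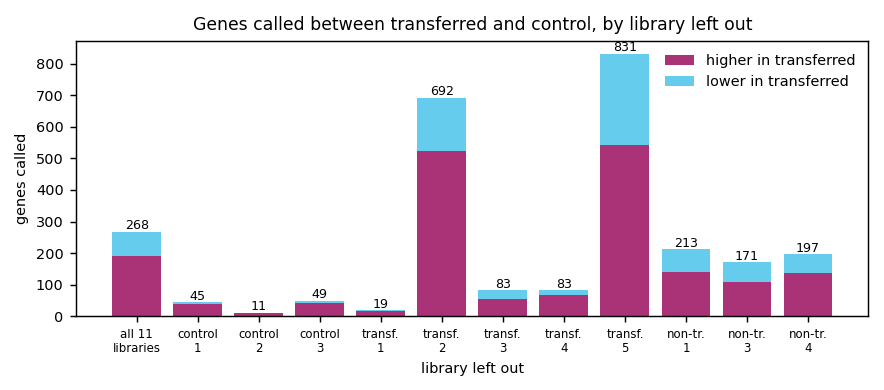
Bars show the number of genes called between transferred and control colon (limma, adjusted p under 0.05) with all 11 libraries and with each library left out in turn, split into genes higher and lower in transferred colon. The count was 268 with all libraries, fell to 11 without control replicate 2 and rose to 831 without transferred replicate 5.

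Only 11 genes passed in all 8 fits that left out 1 transferred or 1 control library, and all 11 were higher in transferred colon. They were the class II genes H2-Ab1, H2-DMb1, Cd74, H2-Aa, H2-DMa and H2-Eb1, the lymphocyte genes Ccl5 and Gzmb, and Cebpd, Pla2g5 and B3galt5. No other gene was called without control replicate 2, so every further call named below was lost in that fit, and its adjusted p there is given beside the genes.

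MHC class II genes made up 6 of these 11. Of 14 class II genes tested, 8 were higher in transferred than in control colon, none was lower, and the median log2 fold change of the list was 1.88. Depending on the library left out, 6 (without control replicate 2) to 11 (without transferred replicate 2) of the 14 were called. Because whole tissue was measured, more cells of a type and more RNA per cell cannot be told apart, here and for all genes below.

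Cd74, the invariant chain that escorts class II molecules through the cell, had 2872, 2454 and 4303 normalized counts in the control libraries and 26833, 19754, 33005, 36519.8 and 19439 in the transferred ones. Every transferred library was thus at least 4 times above the highest control, while the non-transferred mean was 59871 ± 4802 (SD, n = 3). The log2 fold change was 3.07 ± 0.24 (adjusted p = 0.000141). H2-Aa, the alpha chain of the I-A molecule, was at 1222, 1183 and 1798 in control and 8923, 6912, 11183, 12607 and 6985 in transferred colon. Its log2 fold change was 2.72 ± 0.21 (adjusted p = 0.000141), with a non-transferred mean of 19932 ± 1832 (SD, n = 3). The beta chain H2-Ab1 moved with it, from 1493 ± 418 (SD, n = 3) to 9010.0 ± 1869 (SD, n = 5) normalized counts, a log2 fold change of 2.6 ± 0.19 (adjusted p = 0.000141). Over the fits leaving out 1 library, the adjusted p of these 3 genes stayed at or below 0.0027.

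H2-DMa and H2-DMb1 encode the chaperone that exchanges the invariant chain peptide for antigen. H2-DMb1 was at 106, 105 and 186 in control and 1061, 865, 1154, 1769 and 1006 in transferred colon, a log2 fold change of 3.14 ± 0.23 (adjusted p = 0.000141). H2-DMa rose by 2.27 ± 0.21 on the log2 scale and H2-Eb1, the beta chain of I-E, by 2.2 ± 0.21 (adjusted p = 0.000676 for both). Ciita itself had 48.0, 40.8 and 90.4 normalized counts in control and 403, 201, 371, 817 and 395 in transferred libraries. Its log2 fold change was 2.79 ± 0.37 (adjusted p = 0.0101), and the adjusted p reached 0.0824 without control replicate 2. Cd86, a costimulatory ligand of antigen-presenting cells, was higher by 1.56 ± 0.30 (adjusted p = 0.0324), and this call was lost without control replicate 2 (adjusted p = 0.195). The members that did not pass were H2-DMb2, H2-Ob, H2-Oa, H2-Eb2, Cd80 and Ctss, with log2 fold changes from -0.38 (Ctss) to 1.41 (H2-Eb2).

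The list level, the mean of the members' log2 values relative to the control mean, was 2.14, 1.05, 1.91, 2.35 and 1.67 in transferred replicates 1 to 5. Replicate 4 was highest and replicate 2 lowest, and all lay above the highest control (0.32) and below the lowest non-transferred library (2.94).

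H2-Aa, H2-Ab1, H2-Eb1, H2-DMa and H2-DMb1 lie together on chromosome 17 (GRCm39 chr17:34338515-34535648). Class II promoters share a proximal Y box, an inverted CCAAT element bound by NF-Y, next to the X box. The 250 bases before the start of the canonical transcript are shown for the 4 called class II genes in which the letters GATTGG, or their complement, were found, since the data turn on these genes moving together. Capitals mark the match, sequence runs 5′ to 3′ on the coding strand, and the bases are from GRCm39 with GENCODE starts. The regions are chr17:34506798-34507047 (minus strand) for H2-Aa and chr17:34481933-34482182 (plus strand) for H2-Ab1. For H2-Eb1 and H2-DMa they are chr17:34524563-34524812 and chr17:34354310-34354559, both on the plus strand.
H2-Aa: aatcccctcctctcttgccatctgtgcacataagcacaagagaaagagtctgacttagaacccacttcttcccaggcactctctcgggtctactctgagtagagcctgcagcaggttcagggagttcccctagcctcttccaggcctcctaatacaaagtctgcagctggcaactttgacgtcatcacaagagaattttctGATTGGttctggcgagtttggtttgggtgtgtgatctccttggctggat
H2-Ab1: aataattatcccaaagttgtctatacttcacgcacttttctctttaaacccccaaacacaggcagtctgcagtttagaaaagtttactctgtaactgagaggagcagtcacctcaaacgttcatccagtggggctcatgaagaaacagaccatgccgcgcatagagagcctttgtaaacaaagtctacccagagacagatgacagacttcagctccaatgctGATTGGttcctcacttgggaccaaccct
H2-Eb1: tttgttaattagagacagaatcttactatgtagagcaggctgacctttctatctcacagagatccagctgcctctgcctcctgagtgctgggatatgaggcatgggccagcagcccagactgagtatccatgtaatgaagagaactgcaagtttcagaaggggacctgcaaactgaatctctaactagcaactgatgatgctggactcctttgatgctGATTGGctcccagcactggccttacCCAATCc
H2-DMa: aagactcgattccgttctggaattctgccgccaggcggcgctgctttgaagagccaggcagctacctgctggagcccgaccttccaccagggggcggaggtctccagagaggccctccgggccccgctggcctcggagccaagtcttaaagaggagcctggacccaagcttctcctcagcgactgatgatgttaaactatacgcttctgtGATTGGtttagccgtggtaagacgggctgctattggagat
In these 4 promoters a match began 49, 28, 32 and 40 bases before the transcript start, in the order shown, and H2-Eb1 held a second one in the opposite orientation 7 bases before it. The motif was found in 7 of the 14 class II promoters and in 16.4% of all 16734 promoters read. Among the 8 called class II genes it was found in the 4 shown and not in this window of H2-DMb1, Ciita, Cd74 or Cd86. The other matches were in H2-Eb2, H2-DMb2 and H2-Ob, which were not called. The letters TTCNNNGAA, the core of the gamma interferon activation site (GAS), were found in 31 of 192 promoters of genes called higher (16.1%), 3 of 75 of genes called lower (4%) and 6.62% of all. Both strands were searched, TTCNNNGAA reads the same on both, and whether matches of different motifs overlap was not counted. A match describes the letters and is not a binding site.

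Of 18 genes of cytotoxic lymphocytes, 8 were higher in transferred colon, none was lower and the median log2 fold change was 1.70, with 2 (without control replicate 2) to 13 (without transferred replicate 2) called as single libraries were left out. Gzmb, the protease that killer cells deliver into their targets, had 39.6, 29.8 and 19.8 normalized counts in control and 241, 178, 119, 415 and 199 in transferred colons. The lowest transferred colon, replicate 3, had about 3 times the highest control, and the log2 fold change was 2.84 ± 0.34 (adjusted p = 0.0054). Non-transferred colons had 355 ± 62.4 (SD, n = 3). Ccl5, a chemokine made by activated T cells and NK cells, was at 45.2, 54.7 and 63.9 in control and 354, 292, 308, 658 and 526 in transferred libraries. Its log2 fold change was 2.88 ± 0.26 (adjusted p = 0.000577) and the non-transferred mean was 517 ± 101 (SD, n = 3), inside the range of the transferred libraries.

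Cd8a, the coreceptor chain of CD8 T cells, was at 37.7, 33.8 and 35.3 in control and 139, 133, 88.4, 220.1 and 199 in transferred colon. This gave a log2 fold change of 2.03 ± 0.26 (adjusted p = 0.00906), which reached 0.0789 without control replicate 2. Nkg7, a granule protein of killer lymphocytes, was higher by 2.18 ± 0.33 (adjusted p = 0.0198, and 0.125 without control replicate 2). Gzma, Fasl, Ccl4 and Ifng completed the calls. Ifng had no read in any control and 8.21, 2.01, 2.95, 7.62 and 2.19 normalized counts in the transferred libraries, 24 reads in all. Against a floor of 3 counts over the control group the transferred mean was at least 4.56-fold higher (adjusted p = 0.0466, and 0.2 without control replicate 2). The call was also lost with a pseudocount of 10 (adjusted p = 0.304). No transferred or control library reached the filter's mean of 10, so Ifng was tested only because of the non-transferred libraries. The non-transferred mean was 61.8 ± 29.2 (SD, n = 3). Xcl1 and Eomes had log2 fold changes below 0, and neither passed.

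Of 16 pan-T-cell genes, 5 were called, all higher, with a median log2 fold change of 1.48. With all libraries 15 of the 16 had an unadjusted p under 0.05, and edgeR called 5 and DESeq2 15. No call remained without control replicate 1 or 2, and 13 were made without transferred replicate 2. Trac, the constant segment of the receptor's alpha chain, differed by 1.70 ± 0.30 (adjusted p = 0.0296), Cd6 by 2.08 ± 0.38 and Cd3g by 1.58 ± 0.30. Without control replicate 2 the adjusted p of these genes ran from 0.175 to 0.187. The gamma-delta T cell receptor segments Trdc and Trgc1 and the intraepithelial lymphocyte gene Cd7 were also higher, 4 of 13 genes of that list being called with Trdv4, with 0 (without control replicate 2) to 6 (without transferred replicate 2) over the fits leaving out 1 library. T cell list levels ran from 0.59 in transferred replicate 2 to 2.27 in replicate 4, so replicate 4 reached the non-transferred range (2.12 to 2.18) while replicate 2 stood nearest to control.

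Cd4 itself had 49.9, 46.7 and 99.2 normalized counts in control and 332, 80.5, 183, 345 and 137 in transferred colon. Transferred replicate 2 lay inside the control range, and the gene did not pass (log2 fold change 1.59 ± 0.44, adjusted p = 0.0872). Foxp3, the regulator of regulatory T cells, was at 7.54, 2.98 and 15.4 in control and 45.6, 9.05, 29.5, 68.6 and 23 in transferred colon, also overlapping (log2 fold change 1.86 ± 0.59, adjusted p = 0.125). As single libraries were left out, the adjusted p ran from 0.0175 to 0.359 for Cd4 and from 0.031 to 0.478 for Foxp3. Gata3 was the single call among the 15 genes of the CD4 and regulatory list, higher by 2.14 ± 0.39 (adjusted p = 0.0296, and 0.184 without control replicate 2), and 0 to 3 of the list were called as libraries were left out. Of 13 follicular and naive T cell genes, Pdcd1 alone was called (log2 fold change 1.75 ± 0.38, adjusted p = 0.0469, and 0.18 without control replicate 2), with a range of 0 to 2 calls. The mean of Pdcd1 over the transferred and control libraries alone was below the filter of 10. Counts do not separate donor from recipient T cells.

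Among 51 interferon-response genes, 10 were called, all higher, the median log2 fold change was 0.77, and 0 to 18 were called as single libraries were left out, the lowest without control replicate 2. Cxcl9, a chemokine that draws activated T cells, was at 17, 15.9 and 37.5 in control and 371, 62.4, 179.8, 316 and 90.9 in transferred colons, with a log2 fold change of 2.87 ± 0.55 (adjusted p = 0.0315). Nlrc5, the transactivator of MHC class I, differed by 2.2 ± 0.36 (adjusted p = 0.0254). The immunity-related GTPases Igtp and Irgm2 differed by 1.38 ± 0.25 and 1.06 ± 0.19 (adjusted p = 0.0296 for both). Without control replicate 2 the adjusted p of these genes ran from 0.155 to 0.19. Iigp1, Tgtp2, Gbp8, Zbp1 and Irf9 were called as well, and near-identical copies make Tgtp2 and Gbp8 uncertain. Among the 41 members that did not pass, Isg15, Ifit1 and Mx1 had log2 fold changes of 0.28, 0.27 and 0.16, and Irf7 had -0.97, the lowest of the 3 members below 0. These 4 were chosen after their values were seen.

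Of 23 genes of MHC class I presentation and the immunoproteasome, 5 were higher. Psmb8, a catalytic subunit of the immunoproteasome, had 628, 559 and 706 normalized counts in control and 1940.5, 1419, 2422, 3355 and 1722 in transferred colon (log2 fold change 1.72 ± 0.23, adjusted p = 0.0101). Psmb9 differed by 1.31 ± 0.24 (adjusted p = 0.0296), and Tap1 by 1.31. H2-Q6, a non-classical class I gene, differed by 2.56 ± 0.47 (adjusted p = 0.0296), but shares reads with other H2-Q genes and is uncertain. The classical heavy chains H2-K1 and H2-D1 had log2 fold changes of 0.07 and 0.28 and did not pass. No call was left in this list without control replicate 2 (adjusted p from 0.0824 to 0.187 for the genes with values above). Without transferred replicate 2 there were 7. With all libraries 13 of its genes had an unadjusted p under 0.05, edgeR called 5 and DESeq2 called 8.

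Among 19 antimicrobial genes, 3 were called, all higher. The median of the list was 0.82 on the log2 scale, and its members ran from -2.50 (Reg4, which did not pass) to 5.73 (Reg3b). Leaving out 1 library gave 0 (without control replicate 2) to 6 (without transferred replicate 5) calls. Reg3b, a lectin that binds bacteria, had 6384, 406 and 337 normalized counts in control and 54196, 22128, 114398, 200985 and 12169 in transferred colons. Control replicate 1 was more than 10 times above the other controls, yet below each transferred library. The log2 fold change was 5.73 ± 1.03 (adjusted p = 0.0296, and 0.184 without control replicate 2), and the non-transferred mean was 443076 ± 178856 (SD, n = 3). Its near copy Reg3g showed the same order of libraries, with 2102, 245 and 216 in control and 23789, 10451, 48771, 75615 and 5766 in transferred colon (log2 fold change 5.52 ± 0.90, adjusted p = 0.0254, and 0.159 without control replicate 2). The pair is similar in sequence, so reads may be split between them. Pla2g2a, of the secreted phospholipase family, differed by 4.28 ± 0.77 (adjusted p = 0.0296, and 0.18 without control replicate 2). It ranged from 96.6 in transferred replicate 2 to 875 in replicate 4. These counts are of RNA and do not show an active enzyme.

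Pla2g5, another secreted phospholipase, was at 106, 51.7 and 60.6 in control and 723, 351, 729, 923 and 504 in transferred colon. Its log2 fold change was 3.12 ± 0.35 (adjusted p = 0.00259), and non-transferred colons had 1129 ± 482 (SD, n = 3). Pla2g2a lies within the span of Pla2g5 on the opposite strand. The strand setting of the counting is not given, so the split of reads between this pair is uncertain. B3galt5, a galactosyltransferase that extends epithelial glycans, was at 4183, 1209.8 and 2603 in control and 10462, 10222, 12003, 14030.5 and 12362 in transferred colon, a log2 fold change of 2.31 ± 0.31 (adjusted p = 0.0101). The transferred libraries lay within a narrow range, below the non-transferred mean of 16115 ± 3159 (SD, n = 3). The glycosyltransferases B3gnt7 and Fut2, chosen after their values were seen, differed by 2.54 ± 0.43 and 1.34 ± 0.28 (adjusted p = 0.0269 and 0.0443). Clca4b, a secreted chloride channel regulator, ranged from 463 to 7972 in transferred against 33.8 to 127 in control colon (log2 fold change 4.62 ± 0.76, adjusted p = 0.0269). It was at 44217 ± 8825 (SD, n = 3) in non-transferred colon. Of 21 colonocyte genes, 13 had a negative log2 fold change and the median was -0.09, down to -1.77 for the water channel Aqp8 and -1.60 for the chloride exchanger Slc26a3, neither of which passed. The 2 calls, 0 (without control replicate 2) to 6 (without transferred replicate 5) over the fits leaving out 1 library, were Slc9a3, the apical sodium-proton exchanger, higher by 1.57 ± 0.27 (adjusted p = 0.0269), and the water channel Aqp4, higher by 2.10 ± 0.36 (adjusted p = 0.0269).  Ly6a, a marker of regenerating epithelium that T cells and endothelium also express, and the growth factor Ereg were called among 14 crypt genes (0 to 4 as libraries were left out), higher by 1.69 ± 0.33 and 1.52 ± 0.32 (adjusted p = 0.0331 and 0.0443). Without control replicate 2 the adjusted p of B3gnt7, Fut2, Clca4b, Slc9a3, Aqp4, Ly6a and Ereg ran from 0.155 to 0.234.

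Of 37 genes of acute inflammation, 4 were higher, and 36 had a positive log2 fold change with a median over the list of 0.88. Leaving out 1 library gave 0 (without control replicate 2) to 8 (without transferred replicate 2) calls. Nos2, the inducible nitric oxide synthase, was at 480.4, 249 and 487 in control and 1954, 2123, 3152, 3111 and 1218 in transferred colon (log2 fold change 2.49 ± 0.34, adjusted p = 0.012, and 0.0824 without control replicate 2). The non-transferred mean was 16813 ± 5375 (SD, n = 3), far above the highest transferred library. Tnf was at 49.0, 16.9 and 73.9 in control and 194, 178, 226, 244 and 122 in transferred colon (log2 fold change 2.22 ± 0.39, adjusted p = 0.0296), and this call was lost without control replicate 2 (adjusted p = 0.0975). Its receptor gene Tnfrsf1b and the TNF-induced gene Tnfaip2 differed by 1.16 ± 0.20 and 1.42 ± 0.29 (adjusted p = 0.0269 and 0.042, and 0.167 and 0.216 without control replicate 2). Cebpd, an acute-phase transcription factor, had 455, 615 and 605 in control and 1354, 1556, 1469, 1685 and 1365 in transferred libraries. Its log2 fold change was 1.42 ± 0.14 (adjusted p = 0.000676), with the transferred values close together and touching the non-transferred range (1537 to 2156).

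Several mediators named in the study of this model did not pass with all libraries. After transfer the study measured CCL7, CXCL1, CXCL10 and IL-6 as serum proteins and reported them as reduced by the transfer. Colon mRNA against control is a different measure and comparison. Cxcl10 ran from 32.9 to 282 in transferred against 22.1 to 27.3 in control colon (log2 fold change 1.84 ± 0.57, adjusted p = 0.119). Cxcl1 ran from 5.03 to 42.0 against 2.0 to 4.71 (log2 fold change 1.88 ± 0.57, adjusted p = 0.11). As single libraries were left out, the adjusted p ran from 0.0344 to 0.363 for Cxcl10 and from 0.0296 to 0.429 for Cxcl1. Il6 and Ccl7 overlapped between the groups, with 95% intervals of the log2 fold change from -1.53 to 2.25 and from -1.16 to 1.21. S100a8, an abundant neutrophil protein, was at 2.74, 1.01, 7.86, 52.4 and 1.10 in the transferred libraries and 1.88 to 2.21 in control, so that replicates 2 and 5 were below the lowest control and replicate 4 was far above the rest (adjusted p = 0.595). Ly6g, which marks neutrophils, was the single call of 14 neutrophil genes (adjusted p = 0.0307, and 0.146 without control replicate 2), and 0 to 5 were called as libraries were left out. With a pseudocount of 10 the adjusted p of Ly6g was 0.16. Over the transferred and control libraries alone the means of Ly6g, S100a8 and Il6 were below the filter of 10. Ly6g had 1 read over the control libraries and 73 over the transferred ones, a ratio of 42.8 with a 95% counting interval of 7.45 to 1715 that covers counting error only. Non-transferred colons had 1068 ± 524 (SD, n = 3) normalized counts of it. The neutrophil list levels were 1.77, 0.43, 1.81, 2.46 and 0.72 in transferred replicates 1 to 5 against 4.64 to 6.04 in non-transferred colons. List members such as S100a8 and Ly6g met the filter only through the non-transferred libraries, so the filter itself favoured this gap.

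Of 22 plasma cell genes, 2 were called, both higher, and the median log2 fold change was 1.26. Igkc, the kappa light chain constant segment, was at 12221, 6003 and 13920.3 in control and 34147, 17313, 42317, 38220.5 and 21285 in transferred colon (log2 fold change 1.52 ± 0.33, adjusted p = 0.0469). Jchain, which joins secreted IgA into dimers, was at 6772, 3988 and 5683 in control and 13919.9, 8352, 14396, 15177 and 8546 in transferred colon (log2 fold change 1.12 ± 0.24, adjusted p = 0.0469). Neither held without control replicate 2 (adjusted p = 0.244 and 0.253), no gene of the list was called with any 1 of the 3 controls left out, and 6 were without transferred replicate 2. The IgA heavy chain gene Igha had a log2 fold change of 1.28 and did not pass, and Iglc3 had -0.50. The summed counts of 155 immunoglobulin variable segments ran from 3793 to 8044 in control and from 9547 to 29144 in transferred colon, and the segments had a median log2 fold change of 1.64, with 7 of the 155 called. An SD over 1 log2 was found for 126 segments among transferred and 103 among control colons, so single segments varied between colons of both groups. As examples chosen after their values were seen, Ighv7-4 had 368, 393 and 872 normalized counts in transferred replicates 2, 3 and 4, but 0 and 4.38 in replicates 1 and 5. Ighv13-2 had 340 in transferred replicate 1 and at most 12.4 in the others, against 0 to 54.7 in control and 13.1 to 167 in non-transferred colons. Variable segments share sequence, so the split of reads among them is uncertain.

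**Figure D2:**
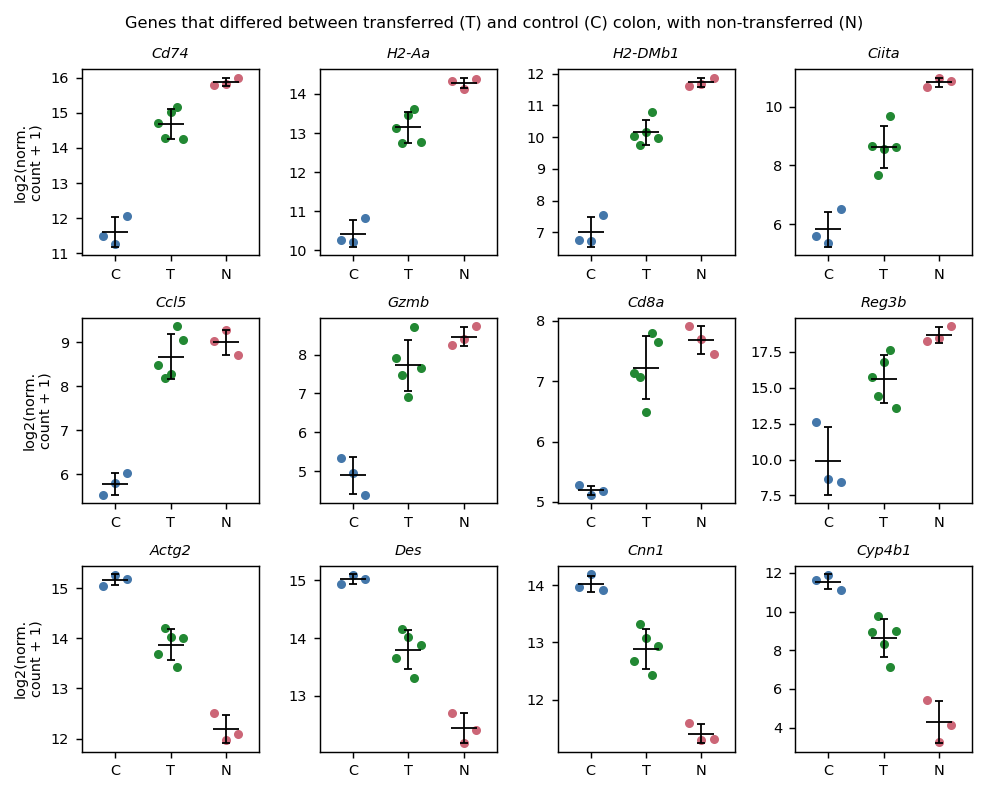
Each panel shows 1 gene as log2(normalized count + 1) in the 3 control (C), 5 transferred (T) and 3 non-transferred (N) libraries, with dots for libraries and black lines for the group mean ± SD. In each of the 12 genes the transferred libraries lie apart from control, for Cd74 at 19439 to 36519.8 normalized counts against 2454 to 4303, and for Actg2 at 11033 to 18796 against 33931 to 39399.5.

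Among the gene lists, smooth muscle held the most genes called lower. Of 17 tested, 9 were lower in transferred than in control colon, none was higher and the median log2 fold change was -0.85. No call was left without control replicate 2 (15 of the 17 had an unadjusted p under 0.05 with all libraries), 11 were called without transferred replicate 2, edgeR called 9 and DESeq2 called 13. Actg2, the actin of visceral smooth muscle, had 33931, 39399.5 and 37249 normalized counts in control and 13245, 18796, 16771, 11033 and 16555 in transferred colon. The groups were well apart, the log2 fold change was -1.29 ± 0.18 (adjusted p = 0.0131, and 0.0975 without control replicate 2), and non-transferred colons had 4734 ± 971 (SD, n = 3). Des, the intermediate filament desmin, was at 31242, 35081 and 33260.5 in control and 12819, 18222, 16532, 10157 and 15041 in transferred colon (log2 fold change -1.22 ± 0.18, adjusted p = 0.0198). Cnn1, the thin-filament protein calponin, was at 15946, 18656 and 15519 in control and 6525, 10169, 8647, 5488 and 7877 in transferred colon (log2 fold change -1.14 ± 0.18, adjusted p = 0.0216). Without control replicate 2 the adjusted p of Des was 0.125 and that of Cnn1 0.145.

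Tropomyosin Tpm2 had a log2 fold change of -0.97 ± 0.17 (adjusted p = 0.0269, and 0.175 without control replicate 2). The remaining calls of the list were Tagln (transgelin), Smtn (smoothelin), Myl9 (regulatory light chain), Mylk (its kinase) and Hspb6, with log2 fold changes from -0.90 to -0.73. Tagln, Myl9 and Mylk were chosen for naming after their values were seen. Acta2, Myh11 and Synpo2 had -0.87, -0.80 and -0.94 without passing. Myocd, the coactivator of this gene programme, was at a log2 fold change of 0.15 and did not pass either. The order of libraries was the same for Actg2, Des and Cnn1: transferred replicate 4 was lowest, then replicate 1, and replicate 2 was highest. Smooth muscle list levels were -1.04, -0.45, -0.60, -1.11 and -0.70 in transferred replicates 1 to 5 and -2.81 to -2.13 in non-transferred colons. The list levels of epithelium over the same libraries were -0.17, 0.06, -0.01, -0.01 and 0.29, and the part of tissue makeup in the decrease was not tested. A CArG box, the site of serum response factor, was found in 1 of the 9 promoters of called smooth muscle genes, that of Tagln, and in 1.24% of all promoters. It is shown for Tagln with the box in capitals (GRCm39 chr9:45847405-45847654, minus strand, 250 bases before the transcript start).
Tagln: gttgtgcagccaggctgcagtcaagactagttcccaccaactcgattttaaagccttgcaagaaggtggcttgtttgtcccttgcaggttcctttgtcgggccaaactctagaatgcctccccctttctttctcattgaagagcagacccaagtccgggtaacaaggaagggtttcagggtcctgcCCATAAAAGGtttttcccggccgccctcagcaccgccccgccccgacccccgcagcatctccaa

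Of 27 actin-binding and cell-matrix adhesion genes, 6 were lower and none higher, and the list had a median log2 fold change of -0.47. Between 0 (without control replicate 1 or 2) and 11 (without transferred replicate 2) were called as libraries were left out. Flnc, a filamin of the muscle membrane, averaged 2814 ± 52.1 (SD, n = 3) in control and 1303 ± 389 (SD, n = 5) in transferred libraries (log2 fold change -1.16 ± 0.20, adjusted p = 0.0269). Csrp1, a muscle LIM protein, differed by -0.95 ± 0.14, Pdlim7 by -0.88 ± 0.16 and the focal adhesion protein Tns1 by -0.79 ± 0.14 (adjusted p = 0.0198, 0.0296 and 0.0296). Without control replicate 2 the adjusted p of these 4 genes ran from 0.134 to 0.187. Itga5 and Palld were the other calls. Sgca, a sarcoglycan, and the small heat shock protein gene Hspb1 had log2 fold changes of -1.15 ± 0.22 and -1.03 ± 0.19 (adjusted p = 0.0296 for both, and 0.193 and 0.186 without control replicate 2).

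Among the largest decreases outside muscle was Cyp4b1, a cytochrome of fatty acid and xenobiotic oxidation. It had 3161, 3713 and 2201 in control and 497, 876, 317, 142 and 510.3 in transferred colons, lowest in replicate 4 and highest in replicate 2. The log2 fold change was -2.89 ± 0.55 (adjusted p = 0.0307, and 0.187 without control replicate 2), against 22.4 ± 17.5 (SD, n = 3) in non-transferred colons. It was the single call among 27 xenobiotic metabolism genes, of which 0 to 3 were called as libraries were left out. The fatty acid binding protein gene Fabp3 averaged 57.4 ± 10.7 (SD, n = 3) in control and 17.5 ± 3.01 (SD, n = 5) in transferred libraries (log2 fold change -1.66 ± 0.29, adjusted p = 0.0296). Ank1, an ankyrin of the membrane skeleton, was at 282, 437 and 339.6 in control and 147, 129, 137, 108 and 140.2 in transferred colon (log2 fold change -1.40 ± 0.19, adjusted p = 0.0101). Calcb, a calcitonin gene-related neuropeptide of enteric neurons, had a log2 fold change of -1.39 ± 0.26 (adjusted p = 0.0296). Krt17 and the matrix protein gene Optc had log2 fold changes of -1.34 ± 0.27 and -1.23 ± 0.18 (adjusted p = 0.0368 and 0.0198). Without control replicate 2 the adjusted p of Fabp3, Ank1, Calcb, Krt17, Optc and Ttc39c ran from 0.0824 to 0.208. Ttc39c was at 86.7, 152 and 116 in control, 34.7, 35.2, 41.3, 50.5 and 59.1 in transferred and 69.6 ± 21.1 (SD, n = 3) in non-transferred colon, with transferred libraries lowest on average (log2 fold change against control -1.39 ± 0.26, adjusted p = 0.0296). None of the 18 neuronal and glial genes passed (7 had an unadjusted p under 0.05, edgeR called 0 and DESeq2 called 2), although all had a negative log2 fold change, with a median of -0.71.

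The lists of tight junction, senescence, and matrix and fibrosis genes had no call in limma. None of 35 tight junction genes passed (limma, 6 with an unadjusted p under 0.05, edgeR called 0 and DESeq2 called 2), and their median log2 fold change was 0.06. Ocln (occludin) was at 1609.7 ± 214 (SD, n = 3) in control and 1445 ± 204 (SD, n = 5) in transferred colon, with a 95% interval of the log2 fold change from -0.45 to 0.13. Tjp1, the scaffold ZO-1, had an interval from -0.17 to 0.39 and Cldn1 one from -0.65 to 1.56. Cldn2, a claudin that forms a cation-selective pore, had the largest change of the list, 1.25 ± 0.35 (adjusted p = 0.0918), and passed without transferred replicate 5 (adjusted p = 0.02). Among 21 senescence genes none passed (1 with an unadjusted p under 0.05, edgeR called 0 and DESeq2 called 1). Cdkn1a, which encodes p21, had an interval from -0.58 to 0.30 and Trp53 one from -0.002 to 0.52. Of 39 matrix and fibrosis genes none passed (7 with an unadjusted p under 0.05, edgeR called 0 and DESeq2 called 1), and their median log2 fold change was -0.16. These intervals bound the difference and do not show that the levels were the same. Fat cell genes, with a list level of -4.45 to -2.03 in non-transferred colon, were at 0.26, -0.20, -0.64, -0.37 and -0.81 in transferred replicates 1 to 5. Control replicates 1 to 3 were themselves spread widely, at -0.80, -0.08 and 0.88. None of 13 fat cell genes was called (2 with an unadjusted p under 0.05, edgeR called 0 and DESeq2 called 1).

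**Figure D3:**
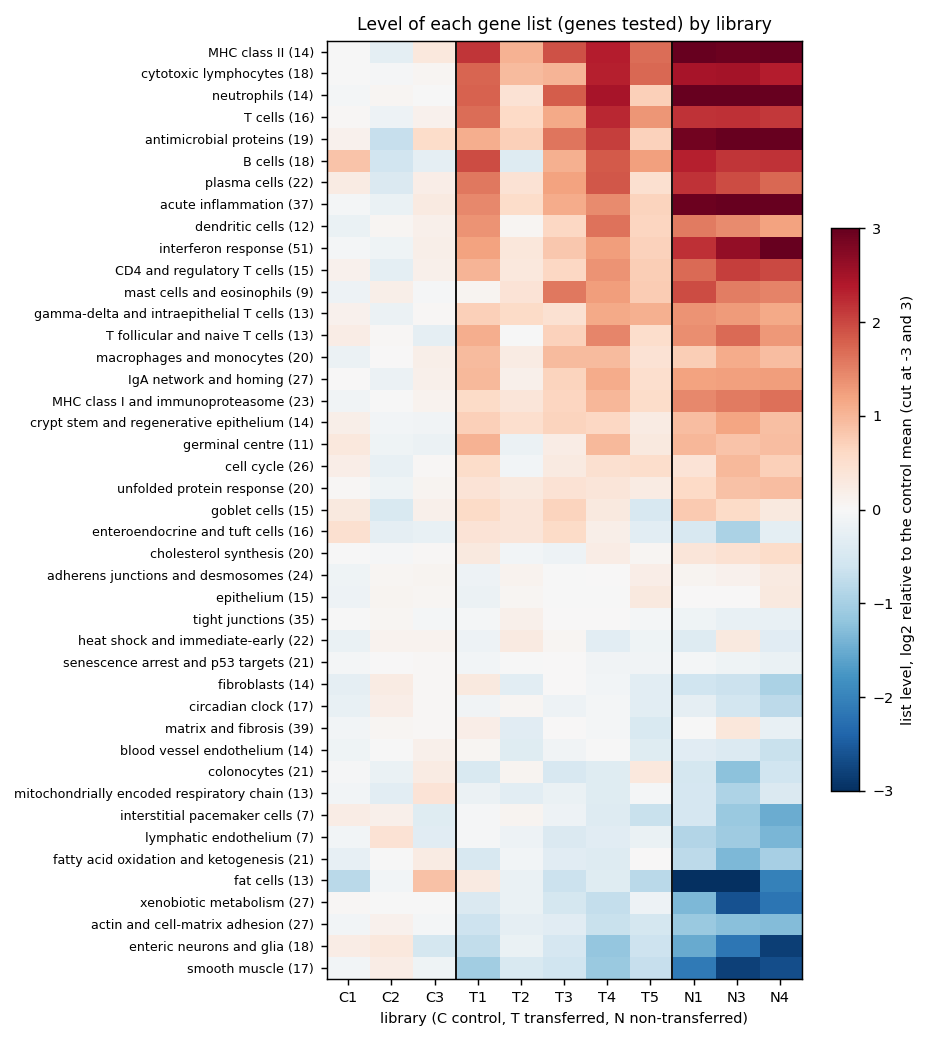
Colours show the level of each gene list in each library, the mean of the members' log2(normalized count + 1) relative to the control mean, for control (C), transferred (T) and non-transferred (N) colons, with the number of genes tested in brackets. MHC class II stands at the top with transferred levels of 1.05 to 2.35 and smooth muscle at the bottom with -1.11 to -0.45.

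The 5 transferred colons were not alike. On the line over all genes tested from the control mean (0) to the non-transferred mean (1), they lay at 0.43, 0.20, 0.39, 0.55 and 0.26, in the order of replicates 1 to 5. Control libraries were between -0.08 and 0.05 and non-transferred ones between 0.90 and 1.07. Transferred replicate 2 was nearest to control, followed by replicate 5, and replicate 4 was past the midpoint. Distances are Euclidean over the log2 values of all genes. The mean distance of transferred replicate 2 to the control libraries was 71.2, within the range between controls themselves (66.9 to 80.8), and that of replicate 4 was 111. Pairs of transferred colons were 62.7 to 99.9 apart, against 66.9 to 80.8 for control and 67.4 to 75.7 for non-transferred pairs. The median SD of a gene was 0.24 log2 among transferred, 0.21 among control and 0.19 among non-transferred colons. No test of these spreads was made.

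**Figure D4:**
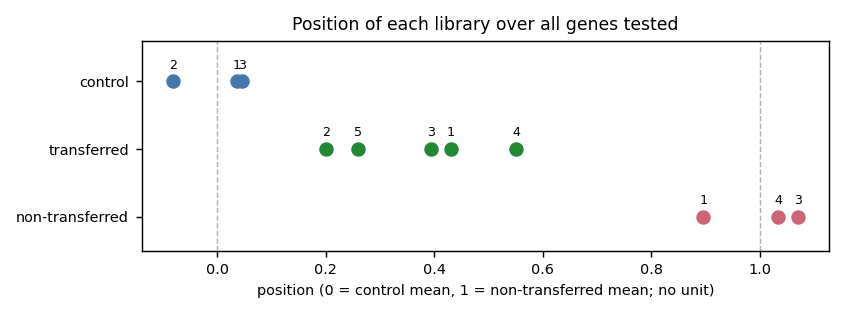
Each dot is 1 library, labelled with its replicate number, placed on the line from the control mean (0) to the non-transferred mean (1) over all genes tested. Transferred colons lie from 0.20 (replicate 2) to 0.55 (replicate 4). They are apart from both other groups on this line, which was drawn from the means of those groups.

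Immune cell lists ranked the transferred colons in much the same way. Of 12 such lists, replicate 4 had the highest level in 9 and replicate 2 the lowest in 10. B cell list levels were 1.95, -0.38, 1.06, 1.84 and 1.23 in replicates 1 to 5, against 0.85 in the highest control, so replicate 2 was within the control range. Plasma cell list levels were 1.57, 0.43, 1.21, 1.86 and 0.49. Those of macrophages and monocytes were 0.95, 0.24, 0.94, 0.96 and 0.44, with replicates 1, 3 and 4 at the non-transferred level (0.74 to 1.12).

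In another set of genes transferred replicate 5 was often at an extreme. An SD over 1 log2 was found for 3.02% of all genes among transferred, 2.44% among control and 2.61% among non-transferred colons. Among genes with a descriptive name and a mean of at least 50 in transferred colon, 146 had an SD over 1 log2 across the transferred libraries. Replicate 5 was the lowest in 77 of them and the highest in 39, and replicate 1 was the highest in 51. Of the 10 genes with the largest SD, 9 are given as a description, since they were chosen for it. Slc37a2, a sugar phosphate transporter, was at 449, 3287, 36.4, 475 and 27550.5 in transferred replicates 1 to 5, 5323, 12923 and 24998 in control and 53.7 to 76.4 in non-transferred colon. Replicate 5 was thus above each control and replicate 3 was below each non-transferred colon. Gal3st2c, a sulfotransferase, was at 203, 2295, 17.7, 532 and 6764 in transferred colon. Cps1, the first enzyme of the urea cycle, was at 5.48, 50.3, 0.983, 1.91 and 423. Reg4, a secreted lectin of goblet and endocrine cells, was at 1815, 5770.4, 169, 3578 and 14408 against 11304, 15951 and 15123 in control. In each of these 4 genes replicate 3 was lowest and replicates 5 and 2 were highest, and non-transferred colons were below 200. The calcium channel Trpv6 had 0.913, 251, 5.90, 0 and 32.9 normalized counts in transferred replicates 1 to 5, highest in replicate 2.

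Lpo, lactoperoxidase, was at 2404, 1409, 2091, 1964 and 17.5 in transferred replicates 1 to 5 and 1109, 216 and 204 in control. Replicate 5 was below every control there. The 3 remaining genes were set by a single colon. Prg4, the lubricant of serosal and joint surfaces, was at 1.83, 10.1, 1312, 6.67 and 0. Alox15, a lipoxygenase of macrophages and eosinophils, was at 17.3, 6.04, 1075, 30.5 and 4.38. Cd5l, a secreted macrophage protein, was at 1.83, 1.01, 257, 15.2 and 0. Among the transferred colons all were high in replicate 3 alone. Prg4 was at 2.83 to 7.95 in control and 0 to 4.84 in non-transferred colons. Alox15 was at 3.77 to 12.9 in control but at 57.8 to 227 in non-transferred colons. Cd5l was at 0 to 1.10 in control and 0.979 to 11.6 in non-transferred colons. The study took about a centimetre of frozen tissue for RNA and does not say from which stretch of the colon. As a readout of position, 13 HOX genes of the hind gut had list levels of -0.19, -0.16, 0.00, -0.18 and -0.26 in transferred replicates 1 to 5. Levels were -0.16 to 0.19 in control and -1.02 to -0.54 in non-transferred colons. Members can cancel in this mean, with 6 log2 fold changes above 0 and 7 below. Hoxd9 was lowest at -0.70 (adjusted p = 0.0569), Hoxa11 had -0.69 (adjusted p = 0.11), and the highest member had 0.39. None passed in limma, and DESeq2 called 2. The part of the site sampled in this spread was not tested.

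**Figure D5:**
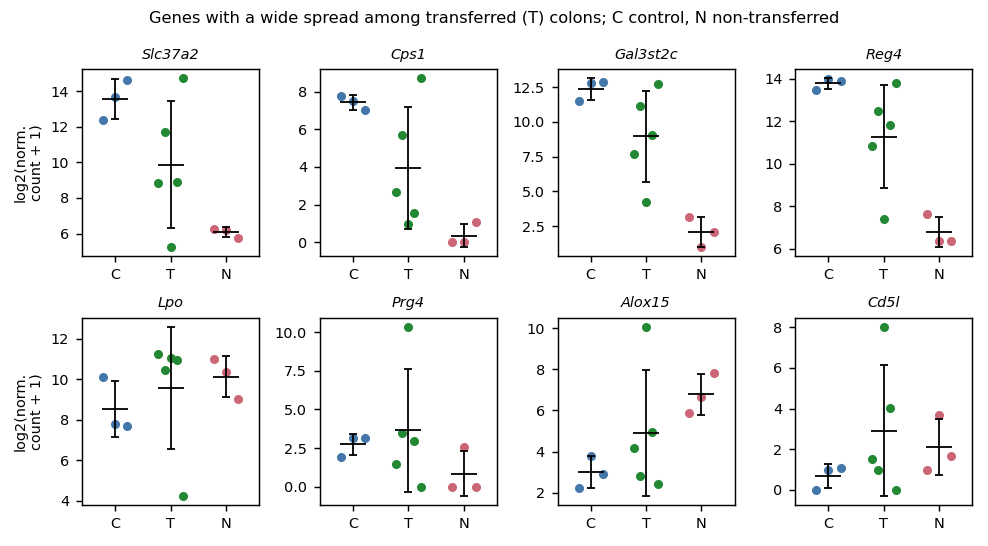
Each panel shows log2(normalized count + 1) of 1 gene with a wide spread among transferred (T) colons, beside control (C) and non-transferred (N) libraries, with dots for libraries in replicate order and lines for mean ± SD. Transferred replicate 5 is the rightmost T dot, with 27550.5 normalized counts of Slc37a2 and 17.5 of Lpo, and replicate 3, the middle dot, has 1312 of Prg4.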

How the data were processed

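Colon RNA was sequenced by the study from 11 libraries. Per the labels and the submitters' processing notes, the authors used HISAT2 2.2.1, SAMtools 1.13, HTSeq 1.99.2 and DESeq2 1.40.2, with GRCm39 as the build. The strand setting of the counting is not given, so overlapping and antisense genes are uncertain. The deposited values are a signal, counts per gene divided by a size factor for each library (normalized counts). They were whole multiples of 1 read (tolerance 0.05) in 100% of values, which gave back the reads used for edgeR 4.0.16 and DESeq2 1.42.0.

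Values were analysed as log2(normalized count + 1), so fold changes of low genes are understated, with limma 3.58.1 (R 4.3.3, variance trend) over genes with a mean of at least 10. The 3 groups shared 1 fit, and p-values were adjusted over all 16781 genes by the Benjamini-Hochberg method at 0.05. A ± beside a log2 fold change is its standard error. Scripts were tested on simulated data. Symbols and promoters came from GENCODE on GRCm39, which named 22657 of 22836 identifiers. Counting intervals are exact and cover counting error only.

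Named genes were Tfam and Cd4, genes the study discusses, the 12 largest rises and 12 largest falls with a mean of at least 50 in the higher group and no overlap, the 12 smallest adjusted p-values, genes called in all 8 fits leaving out 1 transferred or control library, up to 4 members of each list, members against their list, and the 10 largest SDs among transferred colons. Predicted genes and receptor variable segments were counted only, except where a list held them or the text says otherwise. A few named genes are not reported here. The members and lists were chosen with earlier results of these data known. Alternatives were 2 pseudocounts, 2 filters, 2 normalizations, 2 variance models, edgeR, DESeq2, a fit of the 2 groups alone, the study's threshold (a log2 fold change over 0.6 in size with an unadjusted p under 0.05), a replicate block and leaving out each library.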

Additional observations from a re-analysis of the deposited data

Results flagged for a closer look

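Among 184 values examined over the 5 transferred colons, 4 had a single library far from the others on the log2 scale (Dixon's test, 95% critical value 0.71). All 4 were low values of transferred replicate 5. On the normalized counts printed here none of these 4 reaches the critical value, so the flags depend on the scale. Chance flags about 1 in 20 groups. Atoh1, the transcription factor of secretory cells, had 532 normalized counts in that colon against 1305 to 1781 in the other transferred colons. Cldn2, a pore-forming claudin, had 1443 against 3181 to 4094. Lpo had 17.5 against 1409 to 2404, but was named for its large SD among these colons, so its distance is no independent sign. Prg2, an eosinophil granule protein, had 14.2 against 33.2 to 43.8. Without transferred replicate 5 the number of genes called rose from 268 to 831.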

How the results depend on the processing

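Named genes that were called kept their direction under each alternative, while the number of calls did not hold. Over 138 named genes and 3298 alternative values, 2742 kept direction and side of the threshold, 433 kept direction but were no longer called, 106 became called and 17 reversed, all 17 in genes that were not called. The count of 268 (192 higher, 76 lower) became 177 (112 higher) with edgeR, 1236 (774 and 462) with DESeq2, 23 (18 and 5) with the transferred and control libraries alone, 145 (107 and 38) without a variance trend, 1115 (710 and 405) with array weights and 1663 (950 and 713) at the study's threshold. Leaving out 1 library gave 11 to 831 calls, 11 to 542 higher and 0 to 289 lower, with the lowest without control replicate 2 and the highest without transferred replicate 5. With limma and control replicate 2 left out, 714 genes were lower at an unadjusted p under 0.05. With the replicate number as a block, 930 genes (617 and 313) were called. Deviations of same-numbered transferred and control libraries correlated at 0.39, 0.27 and -0.10, and those of differently numbered ones at -0.40 to 0.28. These few mixed values cannot decide whether the numbers pair the libraries. The cause of these changes was not tested.

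The reversed values were log2 fold changes of genes that were not called. The Ccl7 log2 fold change went from 0.02 to -0.032 (quantile normalization) and -0.023 (DESeq2), and from -0.49 to 0.58 over the fits leaving out 1 library. The Il6 log2 fold change went from 0.36 to -0.35 (quantile normalization) and -0.21 (replicate block), with -0.25 to 0.80 over the fits leaving out 1 library. The Prg4 log2 fold change went from 0.91 to -0.76 without transferred replicate 3, the highest value being 1.83. The Tfam log2 fold change went from -0.01 to 0.0065 (array weights) and ran from -0.046 to 0.047 as libraries were left out. The Tjp1 log2 fold change went from 0.11 to -0.016 under the block. The Trpv6 log2 fold change went from -1.32 to 0.86 (edgeR) and 0.84 (DESeq2).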
